A study of Mus musculus with 36 samples.

Results

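Cck, Npy, Penk, Pdyn, Crh and Tac1 encode the precursors of cholecystokinin, neuropeptide Y, the enkephalins, the dynorphins, corticotropin-releasing hormone and substance P. Cckbr, Npy1r and Crhr1 encode receptors for 3 of these ligands, and Crhbp encodes a secreted protein that binds corticotropin-releasing hormone. These 10 genes were chosen by name, not by a threshold, from the 52636 genes of a transcript table of the anterior cingulate cortex (aCC), and all 10 passed the filter on low values (0.1 TPM or more in 8 or more of 36 libraries, TPM being a transcript abundance scaled by length and by library total), as did 25572 genes in all. The list was drawn up with earlier results of these data known, so the p-values of its members below describe the data and are no independent support.

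The table held 36 libraries, each from 1 aCC punch of a female C57BL/6NTac-Brd1 mouse aged 8 to 11 weeks. Brd1+/- mice carry 1 copy of a targeted deletion within Brd1, a gene for a bromodomain protein of histone acetylation complexes, and wildtype (WT) mice were matched to them by litter. Mice received subcutaneous saline (vehicle) or the tricyclic antidepressant imipramine (IMN, 10 mg/kg), 1 injection on each of 2 days. There were 8 WT and 9 Brd1+/- mice given vehicle (WT vehicle, Brd1+/- vehicle) and 10 WT and 9 Brd1+/- mice given IMN (WT IMN, Brd1+/- IMN). Every mouse, vehicle groups included, went through tail suspension, open field and forced swim testing, and brains were collected 1 hour after the swim, so that no group shows the untested cortex. The deletion was present throughout life and in every tissue, and the mice came from 1 line.

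Neuropeptides are cut from larger precursors, stored in dense-core vesicles and released upon sustained firing, after which they act on G protein-coupled receptors. In the cortex most peptide genes mark classes of GABAergic interneurons, whereas Cck and Pdyn are also transcribed in excitatory neurons and the receptors Cckbr, Npy1r and Crhr1 are found largely on excitatory cells. Penk, Pdyn and Tac1 are in addition strongly transcribed by the projection neurons of the striatum, which lies close to the cingulate cortex. In bulk tissue, fewer cells of a type and less RNA per cell cannot be told apart.

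Brd1 itself was 26.4 ± 3.03 TPM in WT vehicle, 16.8 ± 2.72 in Brd1+/- vehicle, 23.3 ± 3.43 in WT IMN and 16.8 ± 2.102 in Brd1+/- IMN (mean ± SD). These means followed the labels, but single libraries overlapped with IMN (17.9 to 27.8 TPM in WT, 13.5 to 19.4 TPM in Brd1+/-). Of the libraries, 2 stood apart, and values without them are given beside the results that they moved most. Brd1+/- vehicle 6 had a score of 5.66 for 12 striatal projection neuron markers (mean of log2(TPM + 0.5), Penk, Pdyn and Tac1 not included), against 1.81 to 2.72 in the other 35 libraries, and its 6 choroid plexus markers summed to 3917 TPM, against 0.40 to 41.1 elsewhere. WT vehicle 1 had the lowest score of all 36 libraries for upper cortical layer markers (4.87, others 5.26 to 6.96). Its score for 10 oligodendrocyte markers was 7.25, against 3.44 to 5.83 in the other WT vehicle libraries. That score ranked 3 of 36 from the highest, and a WT IMN library at 7.67 was kept in the fits without the 2 libraries. Another library, Brd1+/- IMN 6, had an oligodendrocyte score of 7.56 and the lowest immediate-early gene score (4.63), and its removal in addition was tried after seeing the data. In all other libraries 11 of the 12 striatal markers were also above 0, and Isl1 was at 0 in 32 of 36. The cortical excitatory neuron markers Slc17a7 and Nrgn had medians of 1148 and 2307 TPM and were no lower than 395 and 1278 TPM in any library. No read counts were used, so the depth behind each TPM value is unknown.

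In the precursors named below, a short run of residues was chosen as a core and searched for. The coding bases of 4 of these cores are given, each at its first occurrence in the precursor, to show where that lies in the transcript. A core need not hold all of the active peptide, so its bases do not mark the whole stretch that yields the peptide. The stretches are in the transcript sense from the GENCODE transcripts of GRCm38, with the codons of that first occurrence in capitals. Bases of any further copy are left in lower case.
Cck, chr9:121490092-121490133, minus strand, last of 3 exons: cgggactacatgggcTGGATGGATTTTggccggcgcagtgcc
Npy, from exon 2 into the next exon, chr6:49823763-49827507, plus strand: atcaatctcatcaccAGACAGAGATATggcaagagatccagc
Penk, chr4:4134322-4134363, minus strand, last of 2 exons: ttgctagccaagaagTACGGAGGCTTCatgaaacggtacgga
Tac1, chr6:7556735-7556779, plus strand, exon 3 of 7: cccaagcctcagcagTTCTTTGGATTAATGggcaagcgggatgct
The 4-residue opioid core occurred 7 times in the 268-residue enkephalin precursor and 3 times in the 248-residue dynorphin precursor. The other cores each occurred once, in precursors of 115 (Cck), 97 (Npy) and 130 (Tac1) residues. For Tac1 the core searched for was that of substance P, so that neurokinin A, coded by the same gene, was not counted. A Penk transcript therefore codes for more opioid cores than a Pdyn transcript, which TPM values do not reflect.

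The ligand transcripts covered a wide range of levels. TPM is scaled per transcript length, so that genes can be compared. Over the 36 libraries, Cck had a median of 726 TPM (368 to 1409) and Npy, made by GABAergic neurons, a median of 275 TPM (147 to 448). Penk had a median of 46.0 TPM (26.6 to 419), Tac1 one of 24.2 TPM (3.89 to 104) and Pdyn one of 20.7 TPM (5.26 to 37.1). Crh was lowest at 6.74 TPM (3.82 to 11.0). Among the receptors, Cckbr stood at 76.7 TPM (49.6 to 113), Crhr1 at 24.1 TPM (11.8 to 32.3) and Npy1r at 17.3 TPM (7.65 to 28.5), and the binding protein Crhbp at 18.8 TPM (14.9 to 25.01). Cck was above Npy, Npy above Cckbr and Npy1r above Crh in 36 of 36 libraries. Cckbr was above Penk in 32 of 36, Penk above Tac1 in 32 and Crhr1 above Pdyn in 30. Tac1 against Crhr1 (18 of 36), Pdyn against Crhbp (16) and Crhbp against Npy1r (23) had no steady order.

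**Figure D1:**
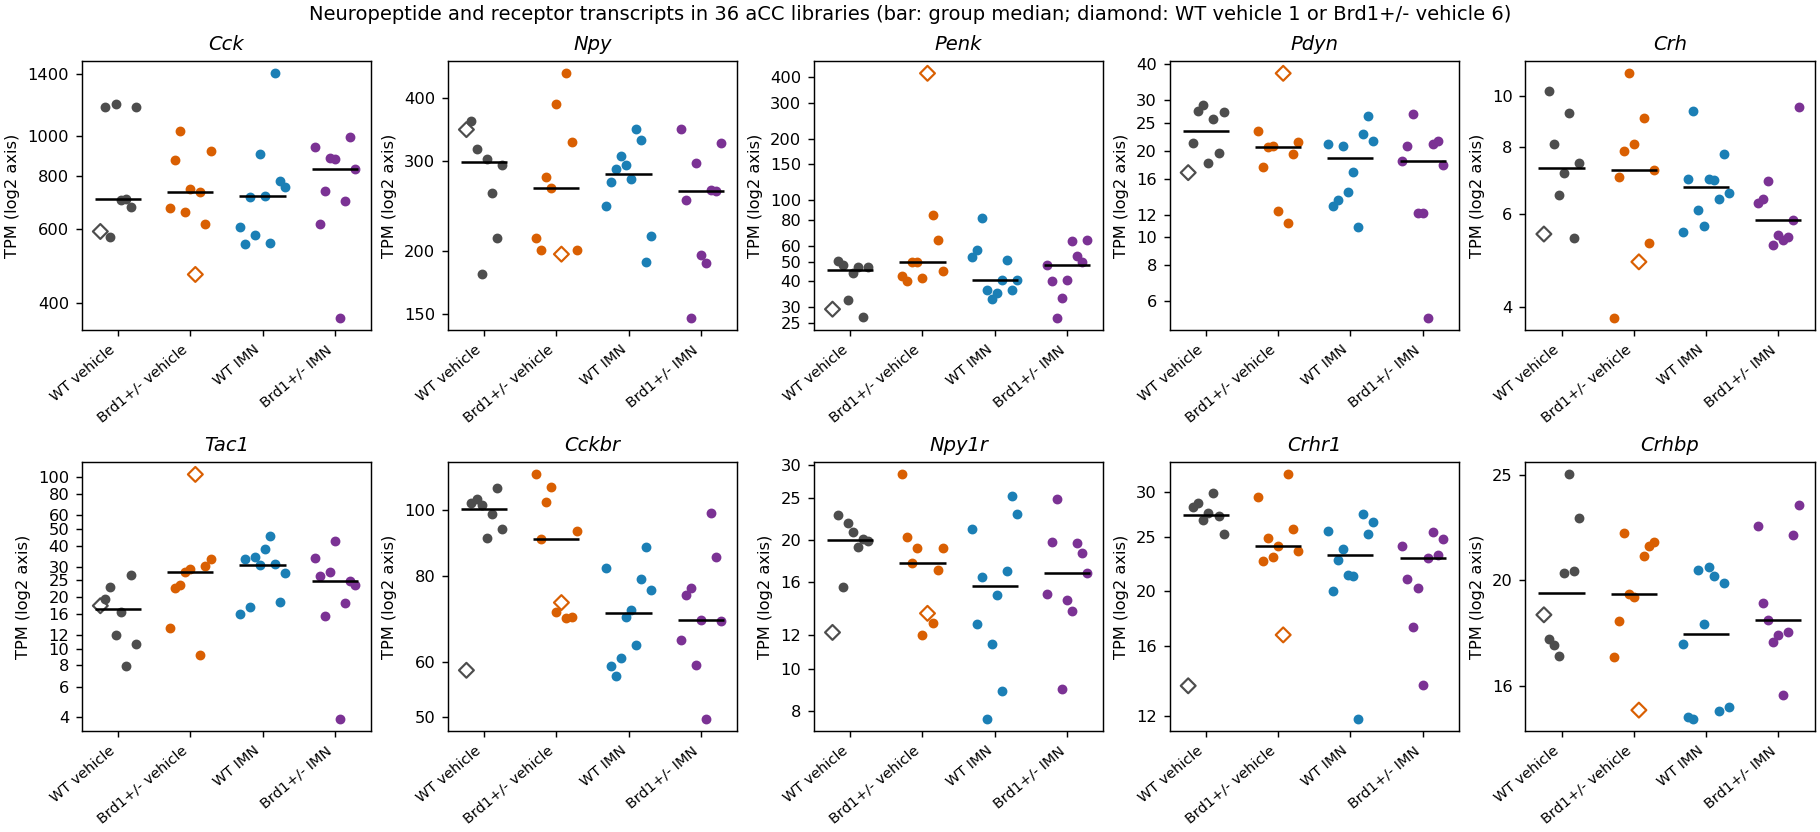
TPM of the 10 genes (log2 axis) in each library of the 4 groups; the bar is the group median, and open diamonds are WT vehicle 1 and Brd1+/- vehicle 6. Cckbr sits lower in both IMN groups (medians 70.7 and 69.2 TPM) than in the vehicle groups (100 and 90.7 TPM), and Penk and Tac1 reach 419 and 104 TPM in 1 library.

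Most of these transcripts varied more between mice of 1 group than other genes of a similar level. Tac1 had a within-group SD of 0.77 on the log2 scale, above 99.2% of 500 genes of similar level, whose median SD was 0.21. Penk (0.63), Pdyn (0.49), Npy1r (0.43), Cck (0.41) and Npy (0.37) had SDs above 97.4%, 96%, 91.4%, 95.3% and 92.4% of such genes (317 genes for Cck). Without the 2 libraries Penk dropped to 0.39, still above 92.6%. Crhr1 (0.31, above 82%) and Cckbr (0.27, above 79%) stood out less, and without the 2 libraries they were above 70.6% and 73.2%. Crh (0.31, above 59.8%) and Crhbp (0.19, above 35.8%) did not stand out. Cck formed 2 levels in WT vehicle, where libraries 2, 4 and 8 lay at 1170, 1187 and 1169 TPM and the other 5 at 573 to 707 TPM.

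The first question was how these genes differed after IMN. At a p adjusted over all genes by limma, 0 of 10 members passed 0.05 in WT mice (background 0% of genes), in Brd1+/- mice (0.00782%) or over both genotypes (0.274%). At an unadjusted p under 0.05, 3 members passed in WT mice (6.6% of all genes tested), 1 in Brd1+/- mice (5.52%) and 2 over both genotypes (9.38%). The latter 2 were lower, as 5.48% of all genes were, and 0 were higher (3.9%). The members' median log2 fold change was -0.16 in WT mice, -0.17 in Brd1+/- mice and -0.15 over both, against -0.01, 0.01 and -0.0023 for all genes, and over both genotypes 9 of 10 lay below 0. These comparisons share libraries with each other and with the genotype comparisons below. Some members also varied together across libraries, as given below, so that the 9 of 10 are not separate observations.

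Cckbr (chr7:105425731-105470898 in GRCm38, plus strand), the main cortical receptor for cholecystokinin, had the smallest p of the members. It ranged from 58.4 to 107 TPM in WT vehicle (median 100), from 69.5 to 113 in Brd1+/- vehicle (median 90.7), from 57.3 to 88.3 in WT IMN (median 70.7) and from 49.6 to 99.1 in Brd1+/- IMN (median 69.2). All 10 WT IMN libraries lay below the WT vehicle median, and 8 of 9 Brd1+/- IMN libraries lay below the Brd1+/- vehicle median. The WT groups overlapped only through WT vehicle 1, which at 58.4 TPM was far from the other 7 (91.0 to 107 TPM). Without it, all 10 WT IMN libraries were below all 7 WT vehicle libraries, a separation seen in 0.109% of genes tested (0.0156% with it).

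In WT mice, Cckbr with IMN was 75.4% of its vehicle level (log2 fold change -0.41 ± 0.11 SE, limma p = 0.0016, adjusted p = 0.46). In Brd1+/- mice it was 82.0% (-0.29 ± 0.13, p = 0.037, adjusted p = 0.88), -0.31 (p = 0.028) without Brd1+/- vehicle 6 and -0.22 (p = 0.079) without Brd1+/- IMN 6. Over both genotypes it was 78.7% (-0.35 ± 0.086, p = 0.00028, adjusted p = 0.067), rank 107 of 25572 genes by p. The difference between the genotypes in this response was 0.12 ± 0.17 on the log2 scale (p = 0.49), which does not show that they were alike.

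The Cckbr call depended on the libraries and covariates used. Without WT vehicle 1 its adjusted p was 0.042 in WT mice (-0.50 ± 0.084) and 0.013 over both genotypes (-0.39). Without both libraries that stood apart it was 0.0097 over both genotypes (-0.41 ± 0.081), and without Brd1+/- IMN 6 as well 0.015 (-0.38). Cckbr therefore passed the threshold in the 34-library fit and not in the 36-library fit, with values of -0.41 and -0.35. The removal took a vehicle library with a high oligodendrocyte score (7.25) and kept a WT IMN library with a higher one (7.67). That vehicle library, WT vehicle 1, also had a low immediate-early gene score (4.88, against 5.74 to 6.33 in the other WT vehicle libraries). Without it the mean of this score in WT vehicle was 6.08 ± 0.21, against 5.93 ± 0.47 with it. The WT IMN mean was 5.44 ± 0.28, so its removal widened the gap between the WT groups in this score. Cckbr also passed over all 36 libraries with the interneuron score as a covariate (-0.33, adjusted p = 0.0058).

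**Figure D2:**
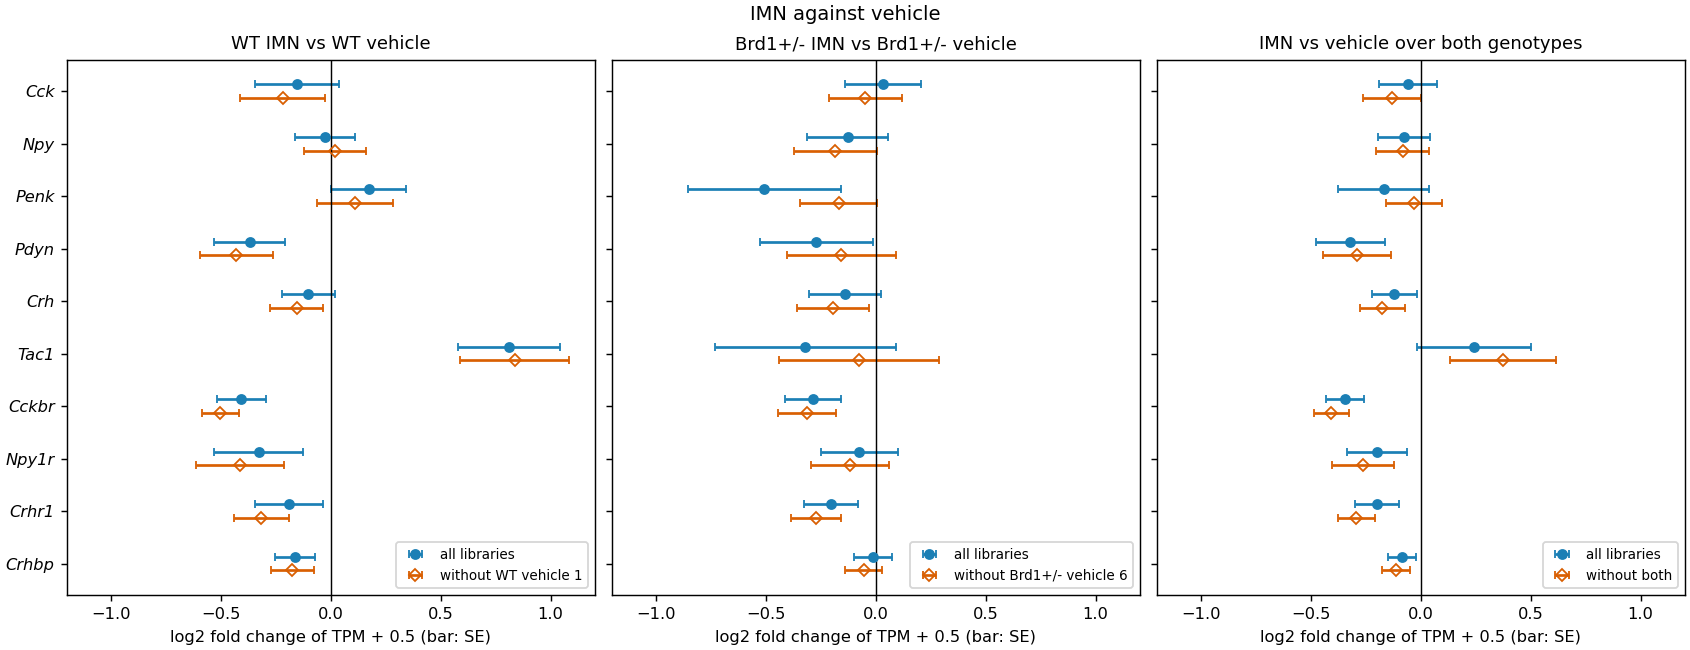
Log2 fold change (± SE) of each gene for IMN against vehicle in WT mice, in Brd1+/- mice and over both genotypes, with all libraries (filled) and without WT vehicle 1, Brd1+/- vehicle 6 or both (open). Cckbr lies below 0 in all 3 panels (-0.41, -0.29 and -0.35 with all libraries), whereas Tac1 lies at 0.81 in WT and -0.32 in Brd1+/- mice (-0.08 without Brd1+/- vehicle 6).

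Other measures moved together with Cckbr. The score of 12 immediate-early genes, which neuronal firing induces, was 5.93 ± 0.47 in WT vehicle, 5.91 ± 0.23 in Brd1+/- vehicle, 5.44 ± 0.28 in WT IMN and 5.40 ± 0.39 in Brd1+/- IMN (mean ± SD), and 9 of the 12 genes were lower over both genotypes at an unadjusted p under 0.05 (3 at an adjusted p, median log2 fold change -0.52). The oligodendrocyte score was 4.91 ± 1.16, 5.24 ± 0.86, 5.53 ± 1.197 and 5.42 ± 1.32 in the same order, the 10 markers summing to 192 to 3570 TPM over all libraries. With the oligodendrocyte score as a covariate, Cckbr was -0.27 ± 0.058 over both genotypes (adjusted p = 0.026). With the immediate-early score as a covariate it was -0.06 ± 0.074 (p = 0.45), a score that itself differed between the treatments. Both covariates were added after seeing the data.

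Within groups, Cckbr followed the same scores, and so did Npy1r and Pdyn, as given below. After subtraction of the group means, Cckbr correlated with the immediate-early score at r = 0.76 (Spearman's rho 0.64) and with the oligodendrocyte score at r = -0.76 (rho -0.74) over 36 libraries (permutation p adjusted over 70 relations 8.7e-05 for both r, and 0.00053 and 0.00014 for rho). Over 34 libraries r was 0.67 and -0.70. Leaving out the 2 of 36 libraries farthest from the median of Cckbr gave 0.61 and -0.67. Whether these scores account for the difference was not tested beyond the covariates above.

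**Figure D3:**
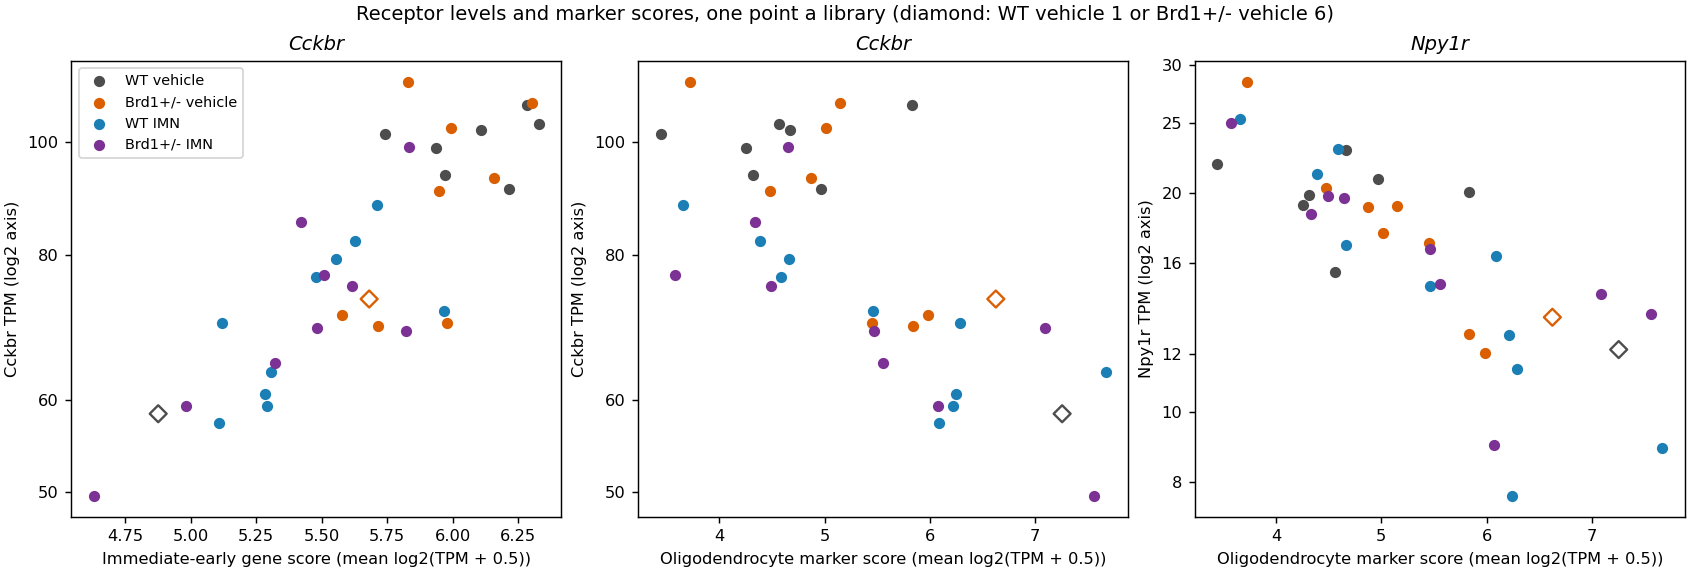
Cckbr TPM (log2 axis) against the immediate-early gene score and against the oligodendrocyte marker score (mean log2(TPM + 0.5)), and Npy1r TPM against the latter, 1 point a library, coloured by group, with diamonds for WT vehicle 1 and Brd1+/- vehicle 6. Cckbr is higher at a higher immediate-early score (within-group r = 0.76), and both receptors are lower at a higher oligodendrocyte score (r = -0.76 and -0.80).

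Tac1, the precursor of substance P and neurokinin A, differed in the other direction in WT mice. It was 7.92 to 26.8 TPM in WT vehicle (median 17.1) and 15.9 to 45.6 TPM in WT IMN (median 30.8), and 7 of 10 IMN libraries lay above every vehicle library. The log2 fold change was 0.81 ± 0.23 (limma p = 0.0025, adjusted p = 0.49), a level of 175% of vehicle. In Brd1+/- mice Tac1 was 9.19 to 104 TPM with vehicle (median 27.9) and 3.89 to 42.4 TPM with IMN (median 24.8), and the groups overlapped almost fully. That log2 fold change was -0.32 ± 0.41 (p = 0.44), and -0.08 ± 0.36 without Brd1+/- vehicle 6. It lay above 0 with the striatal score (0.057) or the immediate-early score (0.18) as a covariate, and without Brd1+/- IMN 6 in addition (0.21).

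The interaction of genotype and IMN for Tac1 was -1.13 ± 0.49 on the log2 scale (limma p = 0.028, adjusted p = 0.9998), and Tac1 was the 1 member of 10 with an unadjusted p under 0.05 there (3.2% of all genes, and 0% at an adjusted p). Without both libraries it was -0.91 ± 0.46 (p = 0.056), and without Brd1+/- IMN 6 as well -0.63 ± 0.37 (p = 0.098). With the striatal score as a covariate the interaction was -0.71 ± 0.39 (p = 0.079) and the WT difference 0.77 ± 0.20 (p = 0.0011). The WT groups had striatal scores of 2.29 ± 0.21 with vehicle and 2.32 ± 0.20 with IMN. Their scores for 6 deep cortical layer markers were 3.77 ± 0.74 and 4.04 ± 0.89, and 3.57 ± 0.50 for vehicle without WT vehicle 1. Whether the deep layer score accounts for the Tac1 difference was not tested.

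Pdyn, the dynorphin precursor, was lower with IMN by value. It was 16.8 to 28.7 TPM in WT vehicle (median 23.5) and 10.9 to 26.3 TPM in WT IMN (median 18.8), with 9 of 10 IMN libraries below the vehicle median and the groups overlapping. The log2 fold change was -0.37 ± 0.16 (limma p = 0.035, adjusted p = 0.72), and -0.43 (p = 0.018) without WT vehicle 1. It was -0.21 ± 0.094 (p = 0.041) with the oligodendrocyte score as a covariate and -0.18 ± 0.19 (p = 0.36) with the immediate-early score. Its p was under 0.05 in 7 of 12 alternatives and in 10 of 18 fits with 1 library left out. In Brd1+/- mice Pdyn was 11.2 to 37.1 TPM with vehicle (median 20.6) and 5.26 to 26.8 TPM with IMN (median 18.4), a log2 fold change of -0.27 ± 0.26 (p = 0.31). That value was -0.16 without Brd1+/- vehicle 6 and -0.08 without Brd1+/- IMN 6, which held the 5.26 TPM, and 0.31 with the immediate-early score as a covariate. Over both genotypes it was -0.32 ± 0.16 (p = 0.048, adjusted p = 0.52), and -0.29 ± 0.16 (p = 0.069) over 34 libraries.

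The remaining ligands did not pass at any threshold after IMN. Cck was 573 to 1187 TPM in WT vehicle (median 705), 467 to 1024 in Brd1+/- vehicle (median 734), 550 to 1409 in WT IMN (median 717) and 368 to 995 in Brd1+/- IMN (median 831), and all 4 groups overlapped. Penk was 32.7 to 82.1 TPM in WT IMN (median 40.6) and 26.6 to 64.2 TPM in Brd1+/- IMN (median 47.9), both overlapping the vehicle groups described below. Over both genotypes, Cck was -0.06 ± 0.13, Npy -0.08 ± 0.12, Penk -0.17 ± 0.21 and Crh -0.12 ± 0.10 on the log2 scale (limma, adjusted p 0.78 to 0.94). The Penk value rested on Brd1+/- vehicle 6, without which it was 0.0048 ± 0.13. Over 34 libraries Cck was -0.13, Npy -0.08, Penk -0.03 and Crh -0.18. The other receptors lay lower by value. Crhr1, through which corticotropin-releasing hormone acts in the cortex, was -0.20 ± 0.10 (p = 0.055), and -0.29 ± 0.085 (p = 0.0014, adjusted p = 0.11) over 34 libraries. Its level was 13.6 to 29.9 TPM in WT vehicle (median 27.4), of which WT vehicle 1 was lowest and the other 7 were at 25.2 or above, 16.7 to 32.3 in Brd1+/- vehicle (median 24.1), 11.8 to 27.5 in WT IMN (median 23.2) and 13.6 to 25.5 in Brd1+/- IMN (median 22.9). Npy1r, the Y1 receptor, had medians of 19.99 and 15.6 TPM in the WT groups and 17.6 and 16.7 TPM in the Brd1+/- groups (vehicle first), and was -0.20 ± 0.14 (p = 0.15), and Crhbp -0.09 ± 0.064 (p = 0.18). With the immediate-early score as a covariate, Npy1r, Pdyn, Crh and Cck lay above 0 (0.12, 0.035, 0.018 and 0.085), so that their direction depended on it.

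The second question was how the genes differed in Brd1+/- mice. No member passed an adjusted p in vehicle-treated mice (0% of all genes), in IMN-treated mice (0%) or over both treatments (0.00391%, which is Brd1 alone). Brd1 itself had a limma adjusted p of 0.062 with vehicle and 0.88 with IMN. A lack of calls in these pairs of groups therefore does not show a lack of difference. At an unadjusted p under 0.05, 0 of 10 members passed in each of the 3 comparisons, against 3.75%, 3.23% and 3.62% of all genes.

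Penk and Tac1 had the largest differences by value among the members in vehicle-treated mice. Penk was 26.7 to 50.3 TPM in WT vehicle (median 45.6) and 40.4 to 84.3 TPM in 8 of the Brd1+/- vehicle libraries, with 419 TPM in Brd1+/- vehicle 6. The groups overlapped, and 3 of 9 Brd1+/- libraries lay above every WT library. The log2 fold change was 0.69 ± 0.36 (limma p = 0.074), and 0.29 ± 0.17 (p = 0.10) without both libraries. Tac1 was 0.73 ± 0.35 (p = 0.054), and 0.51 ± 0.29 (p = 0.10) without them. Brd1+/- vehicle 6 also had the highest Tac1 (104 TPM) and Pdyn (37.1 TPM) of all libraries, beside its striatal score of 5.66.

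Pdyn lay lower in Brd1+/- vehicle by value, and by more once the libraries that stood apart were left out. With all libraries it was -0.22 ± 0.19 (limma p = 0.25) in Brd1+/- vehicle against WT vehicle, and without both libraries -0.40 ± 0.16 (p = 0.023, adjusted p = 0.72), when all 8 Brd1+/- vehicle libraries lay below the WT vehicle median. The oligodendrocyte score, with which Pdyn moved, was 5.24 ± 0.86 in Brd1+/- vehicle and 4.91 ± 1.16 in WT vehicle with all libraries, and 5.06 ± 0.73 and 4.58 ± 0.73 without both. In IMN-treated mice Pdyn was -0.13 ± 0.24 (p = 0.60), and 0.06 ± 0.18 without Brd1+/- IMN 6.

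The other members had small differences with genotype. Over both treatments, Cck was -0.05 ± 0.13, Npy -0.10 ± 0.12, Crh -0.10 ± 0.10, Cckbr -0.05 ± 0.086, Npy1r 0.01 ± 0.14, Crhr1 -0.06 ± 0.10 and Crhbp 0.05 ± 0.064 on the log2 scale (limma, adjusted p = 0.9992 for each). In mean TPM, Npy was 285 ± 63.4 in WT vehicle, 280 ± 91.4 in Brd1+/- vehicle, 277 ± 49.3 in WT IMN and 254 ± 66.2 in Brd1+/- IMN, differences well inside the SDs. Crh was 7.46 ± 1.71, 7.15 ± 2.24, 6.83 ± 1.11 and 6.27 ± 1.35 TPM in the same order. Crhbp, which had the smallest within-group SD of the members on the log2 scale, was 19.9 ± 2.83, 19.5 ± 2.34, 17.7 ± 2.45 and 19.4 ± 2.63 TPM.

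**Figure D4:**
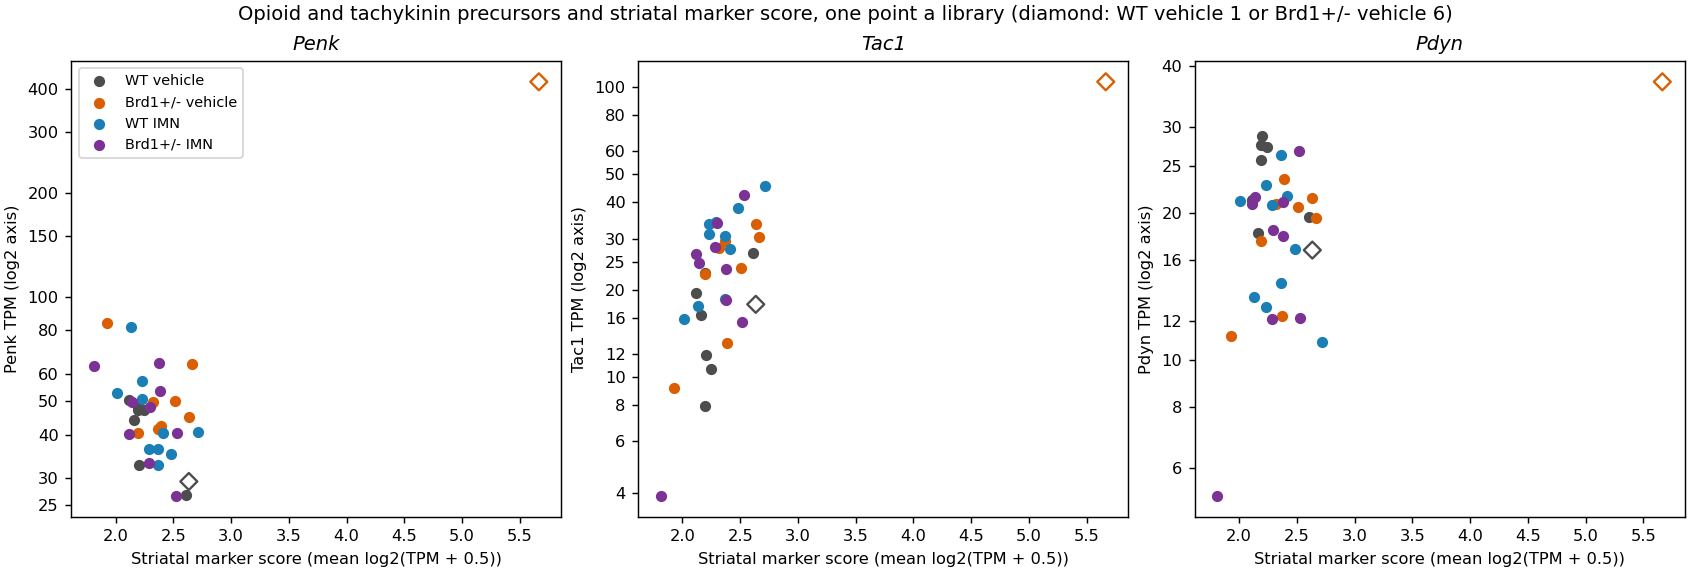
Penk, Tac1 and Pdyn TPM (log2 axis) against the striatal marker score (mean log2(TPM + 0.5)), 1 point a library, coloured by group, with diamonds for WT vehicle 1 and Brd1+/- vehicle 6. Brd1+/- vehicle 6 lies alone at a score of 5.66 with 419, 104 and 37.1 TPM, and without it Tac1 still rises with the score (r = 0.65 over 34 libraries) whereas Penk falls (r = -0.53).

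Penk, Tac1 and Pdyn were each compared with the striatal score. Over 36 libraries and within groups, Penk correlated with it at r = 0.62, but rho was -0.05 and leaving out the 2 farthest libraries gave r = -0.18, so that the positive value rests on Brd1+/- vehicle 6. Over 34 libraries r was -0.53 and rho -0.43 (permutation p adjusted over 70 relations 0.0073 and 0.031). Tac1 correlated at r = 0.65 with all libraries and 0.65 over 34 (rho 0.53 and 0.51, adjusted p 0.00082 and 0.0003 for r, 0.0051 and 0.012 for rho, r = 0.57 and 0.45 without the 2 farthest). For Pdyn r was 0.40 and rho 0.20, which did not pass (adjusted p 0.067 and 0.37), and r was 0.28 over 34 libraries. Tac1 also rose with the score of 6 deep cortical layer markers (r = 0.55, rho 0.64, adjusted p 0.0024 and 0.00023). It fell with the astrocyte score (r = -0.43, rho -0.65, adjusted p 0.029 and 0.0002).

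Across mice, a pair of receptors and the dynorphin precursor varied together. Of 45 pairs of members, 4 passed an adjusted p of 0.05 by both r and rho, with 36 and with 34 libraries. How many pairs of other genes of similar level would pass was not counted, so 4 of 45 cannot be called many or few. Cckbr and Npy1r correlated at r = 0.70 (rho 0.74, permutation p adjusted over the 45 pairs 0.00045 for both, the smallest raw p that 100000 permutations give). Cckbr and Pdyn correlated at r = 0.61 (rho 0.65, adjusted p 0.0038 and 0.0011) and Npy1r and Pdyn at r = 0.50 (rho 0.60, adjusted p 0.020 and 0.0026). Without the 2 libraries farthest from the median of the first gene these were 0.70, 0.51 and 0.58.

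The ligand Npy and its receptor Npy1r ran in opposite directions. Their r was -0.53 (rho -0.51, permutation p adjusted over 45 pairs 0.015 and 0.020), and -0.57 over 34 libraries. Marker scores also ran in opposite directions with the 2 genes. The interneuron score was at r = 0.44 with Npy (rho 0.44) and -0.54 with Npy1r. The astrocyte score was at r = -0.41 with Npy (rho -0.48) and 0.70 with Npy1r. With the oligodendrocyte score Npy had r = 0.35, which did not pass (permutation p adjusted over 70 relations 0.083). Whether these scores account for the relation of the pair was not tested. Cck and its receptor Cckbr had r = 0.40 (rho 0.31), which did not pass (adjusted p 0.084 and 0.22), and Crh with Crhr1 and with Crhbp gave r = 0.19 and 0.31. Penk and Pdyn, both opioid precursors, gave r = 0.14, and -0.29 over 34 libraries.

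**Figure D5:**
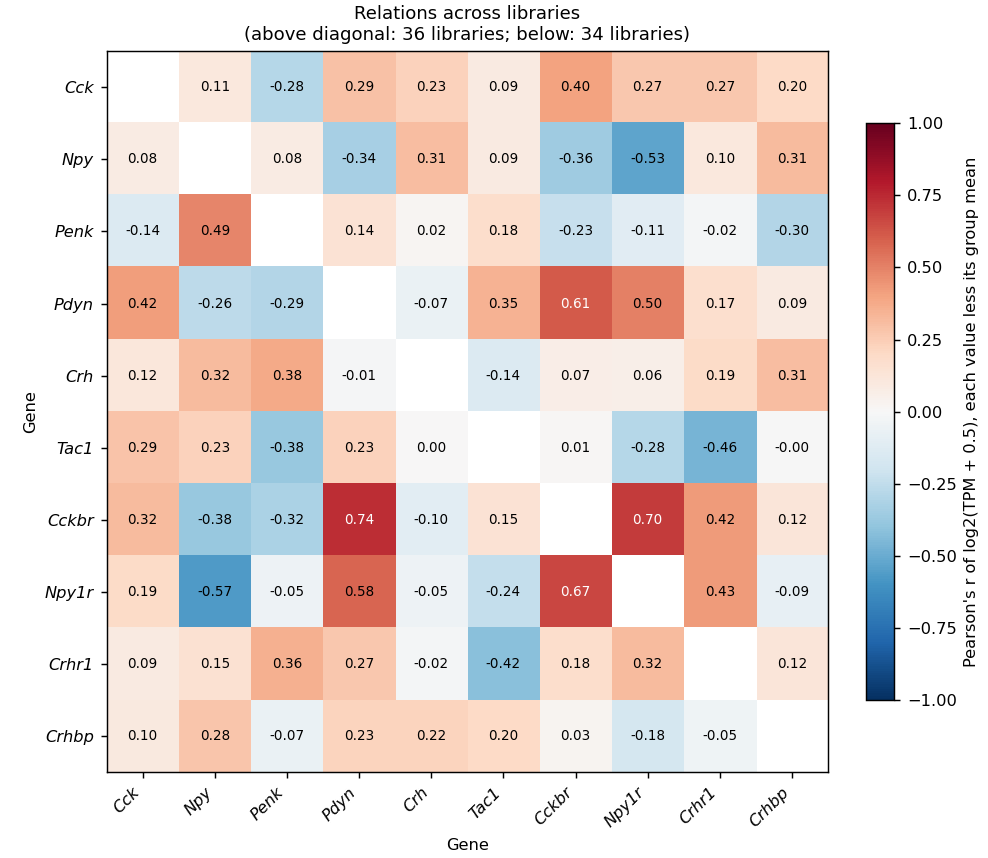
Pearson's r between each pair of the 10 genes, from log2(TPM + 0.5) less the group mean, over 36 libraries above the diagonal and over the 34 libraries without WT vehicle 1 and Brd1+/- vehicle 6 below it. Cckbr, Npy1r and Pdyn form a block of positive values (0.50 to 0.70 above the diagonal), and Npy with Npy1r is the most negative pair (-0.53).

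The 3 genes that varied together each ran against the oligodendrocyte score. The oligodendrocyte score correlated with Npy1r at r = -0.80, with Cckbr at -0.76, with Pdyn at -0.69 and with Crhr1 at -0.59 (permutation p adjusted over 70 relations 8.7e-05 for the first 3 and 0.0011 for Crhr1). Their rho values were -0.85, -0.74, -0.74 and -0.47, and r over 34 libraries -0.77, -0.70, -0.86 and -0.44. Without the 2 of 36 libraries farthest from the median of each gene r was -0.85, -0.67, -0.66 and -0.37. Over 34 libraries rho was -0.82, -0.74, -0.88 and -0.30, and that of Crhr1 did not pass (adjusted p 0.18). Its r over 34 libraries was -0.12 once the 2 farthest of these were left out. The score of 5 upper layer markers ran the other way, at r = 0.72 with Npy1r, 0.67 with Cckbr, 0.44 with Pdyn and 0.66 with Crhr1 (rho 0.71, 0.50, 0.41 and 0.64). The deep layer score was at -0.69 with Npy1r, -0.52 with Cckbr, -0.37 with Pdyn and -0.72 with Crhr1 (rho -0.71, -0.47, -0.48 and -0.68), and the r of Pdyn did not pass (adjusted p 0.062). The interneuron score was at r = -0.70 with Cckbr, -0.54 with Npy1r and -0.40 with Pdyn (rho -0.63, -0.56 and -0.44). The astrocyte score was at r = 0.70 with Npy1r (rho 0.61), whereas Cckbr (r = 0.33) and Pdyn (r = 0.10) did not pass (adjusted p 0.10 and 0.65). The immediate-early score was at r = 0.52 with Npy1r and 0.51 with Pdyn (rho 0.51 and 0.40), beside the 0.76 of Cckbr. Both passed (adjusted p 0.0047 and 0.0084 for r, 0.0078 and 0.043 for rho). The part of tissue composition in the relations between the members was not tested. The share of other genes that would pass with these scores was not counted either.

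The RefSeq table (GRCm38.p6) held promoters for 8 of the 10 members, with 9 starts in all, and Penk and Crh had no entry. The 250 bases before the start of the 3 genes that varied together are given for comparison, and those of Tac1 beside them as the gene that differed the other way after IMN. They run 5′ to 3′ on the gene's strand, in lower case, with capitals for any cyclic AMP response element (CRE, TGACGTCA), its core (TGACG), AP-1 site (TGANTCA) or TATAAA, searched on both strands. The core can lie within a full CRE.
Cckbr, chr7:105425481-105425730, plus strand: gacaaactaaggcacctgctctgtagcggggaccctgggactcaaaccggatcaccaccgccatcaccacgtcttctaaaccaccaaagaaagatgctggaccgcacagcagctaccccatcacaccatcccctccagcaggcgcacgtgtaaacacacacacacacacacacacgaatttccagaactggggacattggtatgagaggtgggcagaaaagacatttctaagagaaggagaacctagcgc
Npy1r, chr8:66697172-66697421, plus strand: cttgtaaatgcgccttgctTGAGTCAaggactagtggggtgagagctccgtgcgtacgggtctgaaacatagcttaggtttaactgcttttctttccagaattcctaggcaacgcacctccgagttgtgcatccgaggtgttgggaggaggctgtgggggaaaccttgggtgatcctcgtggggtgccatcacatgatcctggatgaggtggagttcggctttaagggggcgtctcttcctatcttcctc
Pdyn, the first of 2 starts, chr2:129699939-129700188, minus strand: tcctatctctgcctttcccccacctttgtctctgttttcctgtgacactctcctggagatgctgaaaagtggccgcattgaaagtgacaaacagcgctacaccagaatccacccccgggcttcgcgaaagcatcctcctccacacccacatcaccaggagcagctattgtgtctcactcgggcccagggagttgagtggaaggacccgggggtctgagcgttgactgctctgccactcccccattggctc
Tac1, chr6:7554811-7555060, plus strand: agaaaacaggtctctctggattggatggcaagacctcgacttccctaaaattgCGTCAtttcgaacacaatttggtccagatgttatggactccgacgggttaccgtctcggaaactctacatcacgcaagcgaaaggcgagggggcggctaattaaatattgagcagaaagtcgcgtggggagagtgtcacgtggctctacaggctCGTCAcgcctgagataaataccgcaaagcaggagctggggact
Of the 8 members, 0 held the full CRE (1.55% of 32851 promoters of the same length), 3 held the core (17.8%), 1 an AP-1 site (6.75%) and 0 the TATAAA letters (12.4%). Tac1 held cores whose first bases lie 197 and 43 bases before the start, Cck 1 at 47 and Crhbp 1 at 64. The AP-1 match of Npy1r began 231 bases before its start. A match is a run of letters and not a known site. Cckbr, Npy1r and Pdyn, which varied together, had no motif of this search in common.

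The genes whose levels ran closest to each member were sought among 17686 genes whose mean was 1 TPM or more, over the 34 libraries and within groups. Cckbr ran closest to Hspa2 (r = 0.91), Prag1 (0.90) and Marcksl1 (0.88), Npy1r to Gm45470 (0.91), Prelp (0.89) and Fat4 (0.87), and Pdyn to Klhdc8b, C130026L21Rik and Palmd (0.87, 0.87 and 0.86). Npy ran with Golga7b, Avpi1 and Cabp1 (0.87, 0.85 and 0.85). Tac1 ran with Tmem91, Hs3st2 and CK137956 (0.83, 0.82 and 0.82), Crhr1 with Lrtm2, Rhobtb2 and Krt12 (0.82, 0.78 and 0.77) and Penk with Rspo1, Lamp5 and Cdk2ap1 (0.79, 0.79 and 0.77). The highest values were lower for Crhbp with Rhof, Gm6304 and Gapdh-ps15 (0.67, 0.66 and 0.65), Crh with H2-T-ps, Calm3 and Tspan14 (0.63, 0.62 and 0.61) and Cck with 2010204K13Rik, Nip7 and Efcab1 (0.60 each). These are the highest of many values over shared libraries and are given as a description.

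The other genes of the same pathways were counted from lists drawn up by function. Of 21 other ligands and receptors of these 5 families, 14 were tested and 7 had a median of at least 1 TPM, of which Tac2 (neurokinin B precursor) stood at 30.8 TPM, Oprl1 (nociceptin receptor) at 24.5 TPM, Oprd1 (delta opioid receptor) at 10.3 TPM and Npy5r at 4.43 TPM. The main brain receptor for Tac1 peptides, Tacr1, was at 0.33 TPM and the mu opioid receptor Oprm1 at 0.61 TPM, whereas the other cholecystokinin receptor, Cckar, was listed at 0 in all 36 libraries. After IMN over both genotypes, 1 of the 14 passed an unadjusted p under 0.05 in the higher direction (3.9% of all genes did) and 0 in the lower (5.48%), and 0 an adjusted p. That gene was Oprl1, at 0.25 ± 0.10 (limma p = 0.020), and also the 1 of 14 in WT mice (0.35 ± 0.13, p = 0.015), while 0 passed in Brd1+/- mice. The shares of all genes in either direction were 6.6% in WT and 5.52% in Brd1+/- mice. Over both treatments 1 of the 14, Tacr2, was lower in Brd1+/- mice (-0.26 ± 0.091, limma p = 0.0062), against 3.62% of all genes in either direction. Tacr2 had a median of 0.085 TPM and was above 0 in 20 of 36 libraries.

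Among 32 other peptide ligands and receptors, 31 were tested. Over both genotypes 1 was higher and 2 were lower after IMN at an unadjusted p under 0.05, a share near that of all genes (3.9% higher and 5.48% lower), and 0 passed an adjusted p. Cort (cortistatin) was 0.34 ± 0.13, Sstr3 (a somatostatin receptor) -0.17 ± 0.064 and Nmb (neuromedin B) -0.40 ± 0.18 (limma p = 0.010, 0.012 and 0.031). In WT mice alone 2 of 31 were higher (6.6% of all genes passed in either direction). These were Cort (0.48 ± 0.16) and Npbwr1, a receptor of neuropeptide B and W with a median of 0.30 TPM (0.28 ± 0.12). In Brd1+/- mice 1 was lower, Sstr3 (-0.20 ± 0.090), against 5.52% of all genes in either direction. Against WT, vehicle-treated Brd1+/- mice had 1 of the 31 higher and 2 of the 14 family genes lower (3.75% of all genes passed). The higher gene was Nts (neurotensin) at 1.12 ± 0.48, with a median of 0.23 TPM. The lower genes were Pomc at -0.32 ± 0.14 and Tacr2 at -0.42 ± 0.14, both with a median under 1 TPM.

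The genes that process precursors had 3 of 15 lower and 0 higher after IMN over both genotypes at an unadjusted p under 0.05 (5.48% and 3.9% of all genes), and 0 at an adjusted p. Pcsk1, the prohormone convertase that cuts many precursors, was 38.5 TPM in the median library and -0.29 ± 0.073 on the log2 scale (limma p = 0.00032, adjusted p = 0.070), close to the value of Cckbr. Vgf, a granule protein and itself a peptide precursor, was -0.27 ± 0.11 (p = 0.021) and Ptprn, a granule membrane protein, -0.15 ± 0.059 (p = 0.018). In WT mice 2 of the 15 were lower (6.6% of all genes passed in either direction). These were Pcsk1n, which encodes an inhibitor of the Pcsk1 convertase (-0.15 ± 0.063), and Ptprn (-0.18 ± 0.081). In Brd1+/- mice 1 was lower (5.52% of all genes passed), Pcsk1 (-0.35 ± 0.089, limma p = 0.00086, adjusted p = 0.49). Of 11 peptidases that degrade neuropeptides, 2 were higher and 0 lower (3.9% and 5.48% of all genes). These were Enpep, with a median of 1.04 TPM, at 0.45 ± 0.17 (limma p = 0.010) and Npepps at 0.11 ± 0.054 (p = 0.041). Against the genotype, 1 peptidase, Ece1, was lower over both treatments (-0.13 ± 0.065, limma p = 0.046), and 1, Thop1, in vehicle-treated mice (-0.18 ± 0.068, p = 0.014). The shares of all genes in either direction were 3.62% and 3.75%. In IMN-treated mice 0 genes of these 4 lists passed between the genotypes (3.23% of all genes did).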

How the data were processed

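RNA from right aCC punches was sequenced on a BGISEQ-500 as 50 bp single-end reads. The authors cleaned the reads with FastQC and Trimmomatic, aligned them to GRCm38 with HISAT2 2.1.0 and the Ensembl release 90 annotation, and deposited TPM values from StringTie 1.3.4, scaled by the authors to transcript length and to a library total (column totals 999727.1 to 999889.0). How strand and multiply aligned reads were treated is not given in the sources used here. The authors tested gene counts with edgeR. Those counts were not used here, so that depth is unknown and TPM was tested on a log scale.

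The table had 36 columns, all matched to samples by title, and 0 others. Of its 52636 identifiers, 52403 matched a symbol in GENCODE M21. A gene was kept where 8 or more libraries reached 0.1 TPM (25572 genes), and log2(TPM + 0.5) was fitted with limma 3.58.1 (R 4.3.3, empirical Bayes) with Benjamini-Hochberg adjustment over all genes kept. Fold changes are on that scale and understate changes of low genes. The 4 pairwise comparisons used the libraries of their groups, and the interaction and the comparisons over both genotypes or treatments used all 36. Each library is 1 mouse, so p-values measure the spread between mice. No pair of 630 held identical values (pairwise r 0.977 to 0.989).

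The members and all lists were chosen with earlier results of these data known. By rule, members are named in every comparison, with up to 4 genes of each pathway list at an unadjusted p under 0.05 and the 3 genes most like each member. A few receptors named for their level alone were added after their values were seen. Marker scores are means of log2(TPM + 0.5). Correlations used values less the group mean, with 100000 permutations (Python 3.11.15, numpy 2.4.6, scipy 1.17.1), after which the 2 libraries farthest from the median of the first measure were left out. Similar genes for the spread were the 250 nearest above and below in mean level. Alternatives were other pseudocounts (0.1 and 1), no filter, a minimum mean of 1 TPM, scaling by median ratios, quantile normalization, score covariates, a replicate block, 1 joint fit and single libraries left out. The fitting code was tested on simulated data. Promoters came from RefSeq (GRCm38.p6) and coding stretches from GENCODE M21.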

Additional observations from a re-analysis of the deposited data

Results flagged for a closer look

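In each of 40 groups of values (10 genes in 4 groups), the highest and the lowest library were compared with the rest of their group by Dixon's gap test at the 95% level, which chance alone passes in about 1 of 20 groups. It was passed in 10 groups. Of these, 5 were in the libraries that stood apart. Brd1+/- vehicle 6 had the highest values of its group for Penk (419 TPM, others 40.4 to 84.3), Tac1 (104 TPM, others 9.19 to 33.6) and Pdyn (37.1 TPM, others 11.2 to 23.5). WT vehicle 1 had the lowest values of its group for Cckbr (58.4 TPM, others 91.0 to 107) and Crhr1 (13.6 TPM, others 25.2 to 29.9). The other 5 came from different libraries. Cck was 1409 TPM in WT IMN 8 (others 550 to 903), Penk 82.1 TPM in WT IMN 3 (others 32.7 to 57.0) and Crhr1 11.8 TPM in WT IMN 7 (others 19.98 to 27.5). Npy1r was 28.5 TPM in Brd1+/- vehicle 1 (others 12.04 to 20.3), and Crh was 9.53 TPM in Brd1+/- IMN 9 (others 5.23 to 6.92). No member's response to IMN differed between the genotypes at an adjusted p of 0.05 by limma's interaction term, and 1, Tac1, at an unadjusted p.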

How the results depend on the processing

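Of 900 values for single members under alternatives, 848 kept their direction and their side of the adjusted threshold, 48 changed sign and 4 came to pass the threshold. Those 4 are Cckbr for IMN over both genotypes: -0.33 with the interneuron score as a covariate (adjusted p = 0.0058), -0.27 with the oligodendrocyte score (0.026), -0.41 without both libraries that stood apart (0.0097) and -0.38 without Brd1+/- IMN 6 as well (0.015). The number of members called there then went from 0 to 1. Over its other alternatives the adjusted p of Cckbr was between 0.055 and 0.88, the cause was not tested, and none of the sign changes below passed an unadjusted p of 0.05.

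At an unadjusted p under 0.05, the number of members for genotype with vehicle was 1 in place of 0 under median-ratio scaling and quantile normalization (Tac1), with the striatal score and without both libraries (Pdyn), and with all 36 libraries in one fit (Penk). For IMN in Brd1+/- mice it was 0 in place of 1 under quantile normalization and the immediate-early score and 2 with the striatal score (Cckbr and Crhr1). For the interaction it was 0 in place of 1 with the striatal score, without both libraries and without the third as well. For IMN over both genotypes it was 1 in place of 2 with no filter and with the oligodendrocyte score (Cckbr), and 0 with the immediate-early score. For IMN in WT mice it was 1 (Tac1) in place of 3 with the immediate-early score, and 2 (Cckbr and Tac1) under median-ratio scaling, quantile normalization, the interneuron score and all 36 libraries in one fit.

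Replicate numbers are shared by the groups. Correlations of same-numbered deviations were over 0.1 in 0 of 8, 2 of 9, 1 of 8 and 0 of 9 pairs, the highest at 0.32. These values gave no clear sign of pairing but cannot exclude it, and litter was not in the model. With the replicate number as a block, members at an unadjusted p under 0.05 went from 1 to 0 for IMN in Brd1+/- mice and for the interaction, from 3 to 4 for IMN in WT mice, stayed at 2 for IMN over both genotypes, and 0 passed an adjusted p. Cckbr over both genotypes was -0.37 (adjusted p = 0.15), and all genes called there fell from 70 to 42.

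With the striatal score as a covariate, the sign changed for Npy (0.027), Crh (0.0071), Crhr1 (0.044) and Crhbp (0.021) for genotype with vehicle, then Penk (-0.046) for genotype with IMN, then Cck (-0.037) and Tac1 (0.057) for IMN in Brd1+/-, then Tac1 (-0.041) for genotype over both treatments. With the interneuron score, the sign changed for Cckbr (0.057), Npy1r (0.070) and Crhr1 (0.097) for genotype with vehicle, then Penk (-0.013) for genotype with IMN, then Cck (-0.018) for IMN in Brd1+/-, then Cckbr (-0.0024), Npy (0.0067) and Pdyn (-0.033) for the interaction, then Cck (0.020) and Cckbr (0.034) for genotype over both treatments. With the replicate number as a block, the sign changed for Npy (0.0012) for genotype with vehicle, then Penk (-0.0074) for genotype with IMN, then Npy (0.083) for IMN in WT, then Crhr1 (0.0076) for the interaction. With the oligodendrocyte score, the sign changed for Crhr1 (0.013) for genotype with vehicle, then Cckbr (-0.0046) for genotype with IMN, then Pdyn (-0.029) for the interaction, then Cck (0.0065) for IMN over both genotypes. With the immediate-early score, the sign changed for Crhr1 (0.096) for IMN in WT, then Cckbr (0.044), Npy1r (0.28), Pdyn (0.31), Crh (0.079), Crhbp (0.13) and Tac1 (0.18) for IMN in Brd1+/-, then Cck (0.085), Npy1r (0.12), Pdyn (0.035) and Crh (0.018) for IMN over both genotypes. Without both libraries that stood apart, the sign changed for Npy (0.051) and Crhbp (0.0055) for genotype with vehicle, then Crhr1 (0.044) for the interaction, then Tac1 (-0.0043) for genotype over both treatments. Without Brd1+/- IMN 6 as well, the sign changed for Penk (-0.053) and Pdyn (0.064) for genotype with IMN, then Pdyn (0.033) and Tac1 (0.21) for IMN in Brd1+/-, then Crhr1 (0.029) for the interaction, then Cck (0.024) for genotype over both treatments. After quantile normalization, the sign changed for Npy (0.0084) for IMN in WT.

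With 1 library left out at a time, the sign changed for genotype with vehicle Npy (-0.14 to 0.0049), Crhbp (-0.055 to 0.023), Crh (-0.17 to 0.010) and Crhr1 (-0.18 to 0.013), for genotype with IMN Cck (-0.019 to 0.16), Cckbr (-0.049 to 0.075), Penk (-0.056 to 0.10), Crhr1 (-0.16 to 0.0084) and Pdyn (-0.22 to 0.064). It also changed for IMN in WT Npy (-0.12 to 0.032), for IMN in Brd1+/- Npy1r (-0.15 to 0.028), Crhbp (-0.056 to 0.022) and Cck (-0.048 to 0.16). It also changed for the interaction Crh (-0.093 to 0.017) and Crhr1 (-0.081 to 0.11), for IMN over both genotypes Penk (-0.21 to 0.0048), for genotype over both treatments Npy1r (-0.021 to 0.037) and Tac1 (-0.00065 to 0.12). With 1 library left out, Cckbr for IMN passed the adjusted threshold without WT vehicle 1, so that members called ranged from 0 to 1 in WT mice and over both genotypes, where only the 2 libraries that stood apart were left out. Members at an unadjusted p under 0.05 ranged from 0 to 1 for genotype with vehicle (Pdyn without Brd1+/- vehicle 6, or Tac1), genotype with IMN (Crh without Brd1+/- IMN 9) and the interaction (0 without Brd1+/- vehicle 6), and from 0 to 2 for IMN in Brd1+/- mice (Cckbr and Crhr1 without Brd1+/- vehicle 6).

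Over all genes, adjusted calls for IMN over both genotypes went from 70 to 130 (interneuron score), 8 (immediate-early score), 164 (without both libraries), 109 (without the third as well) and 170 (without WT vehicle 1). Without WT vehicle 1, 32 genes in place of 0 were called for IMN in WT mice, and 2701 in place of 1687 at an unadjusted p. For genotype with vehicle 959 genes became 582 with a mean of at least 1 TPM, 1732 without both libraries and 1691 without WT vehicle 1. The higher mean TPM minimum gave 442 in place of 826 for genotype with IMN, 464 in place of 818 for the interaction and 556 in place of 926 for genotype over both treatments, since fewer genes are tested. For the interaction it was 1462 without the 3 libraries. Adjusted calls went from 2 to 0 or 1 for IMN in Brd1+/- mice under all but the settings without both libraries and without some single libraries, from 0 to 1 or 2 for genotype with vehicle, and from 1 to 2 for genotype over both treatments. TPM values carry no read counts, so that what depth limits could not be stated.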
